A study of Mus musculus with 14 samples.

Results

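The tetraspanins described here are 10 genes of one membrane protein family: Tspan33, Cd9, Cd81, Cd37, Cd53, Cd63, Cd82, Cd151, Tspan3 and Tspan31. They were taken by symbol, as 10 of the 22295 rows of the deposited table of gene expression in activated mouse B cells. The list was chosen by results of these same libraries. Tspan33 was selected on its log2 difference between PU.1 KI and WT, at rank 2 of the 9627 tested genes, and the rule compares all 3 genotypes. The levels and differences of these 10 genes are therefore a description and carry no p-value.

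B cells of the spleen were purified by removing other cell types and were kept for 96 h with lipopolysaccharide (LPS) at 5 µg/ml and interleukin 4 (IL-4) at 10 ng/ml. Together these agents make B cells divide, switch antibody class and, in part, turn into antibody-secreting plasmablasts. The PU.1 KI group (n = 5) had the genotype PU.1[155-/155-], a knock-in that removes the miR-155 site from the gene of the transcription factor PU.1. The miR-155 KO group (n = 5) had the genotype miR-155[-/-], without the microRNA miR-155. The WT group (n = 4) was wild type. Cells of all 3 groups were stimulated, and resting B cells were not analysed here. The sources used here do not give the ages, sexes or strain backgrounds of the mice. The series text calls the replicates biological. Polyadenylated RNA was sequenced. The library sizes behind the deposited values, as recovered from those values, were between 31.5 and 52.5 M reads per library. The number of reads sequenced is not known from them. Levels are RPKM, reads scaled to gene length in kilobases and to the size of the library, so levels of different genes are on a scale per length. Index sequences repeat among the libraries, and sequencing pool and genotype cannot be told apart from the labels. Along principal component 1 (66.1% of the variance over the tested genes), WT 1 lay at -15.4 and the other WT libraries at -18.2 to -18.1, and miR-155 KO 5 lay at 19.9 and the others of its group at 24.2 to 27.7. Calls that end without either library are named beside the result.

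Tetraspanins are small proteins that cross the membrane 4 times and gather other proteins, such as integrins, proteases and receptors, into microdomains. Cd81 is widely expressed and in humans is an entry receptor of hepatitis C virus, while Cd37, Cd53 and Cd82 are found across leukocytes. Tspan33 belongs to the TspanC8 group, whose members carry the sheddase ADAM10 out of the endoplasmic reticulum to the cell surface, and its transcript is known as a marker of activated B cells. Cd63 cycles between lysosomes, multivesicular bodies and the surface and is used as a marker of exosomes.

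The microRNA missing from the miR-155 KO cells acts through its seed, bases 2 to 8, shown in capitals in the mature sequence from RefSeq (GRCm38.p6, chromosome 16).
mmu-miR-155-5p: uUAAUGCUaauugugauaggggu
The match to that seed was looked for in the longest annotated 3' UTR of each tetraspanin (GENCODE, GRCm38) in 3 forms. One form was AGCATTA, the next was the same match 1 base on, GCATTAA, and the last was the full match of 8 bases. Of the 10 genes, 1 held a match: Cd151 had the full match at bases 252 to 259 of a 3' UTR of 776 bases, at chr7:141470949-141470956 on the plus strand. It is printed with its flanks, the match in capitals.
Cd151: gtacttgccccAGCATTAAgaagggggggg
The full match lay in 2.99% and any of the 3 forms in 12.6% of the 21020 genes with an annotated 3' UTR. The 3' UTR of Tspan33 used here, 921 bases long, held none. These are matches of letters only.

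PU.1 is known to bind the core GAGGAA, often within GAGGAAGT, so the 300 bases around each start site in the RefSeq table (GRCm38.p6) were read for both on either strand. All 10 genes had at least 1 start site there. The promoter of Tspan33, whose genotype means had the widest span in log2(RPKM + 0.5), is shown with that of Cd53, which holds the longer motif, with GAGGAA or its reverse complement TTCCTC in capitals. Both run in the gene's own direction.
Tspan33 (chr6:29693964-29694263, plus strand): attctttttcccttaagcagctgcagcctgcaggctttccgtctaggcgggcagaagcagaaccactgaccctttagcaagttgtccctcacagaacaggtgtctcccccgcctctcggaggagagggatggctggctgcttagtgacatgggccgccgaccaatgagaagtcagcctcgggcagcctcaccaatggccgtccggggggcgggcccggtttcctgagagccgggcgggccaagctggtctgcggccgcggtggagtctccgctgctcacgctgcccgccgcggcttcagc
Cd53 (chr3:106790100-106790399, minus strand): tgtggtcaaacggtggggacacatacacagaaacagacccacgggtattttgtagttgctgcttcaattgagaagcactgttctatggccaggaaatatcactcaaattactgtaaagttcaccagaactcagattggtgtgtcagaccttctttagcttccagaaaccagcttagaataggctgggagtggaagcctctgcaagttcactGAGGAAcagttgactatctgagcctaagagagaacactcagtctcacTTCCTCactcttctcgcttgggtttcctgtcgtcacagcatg
The window of Tspan33 held neither motif. GAGGAAGT or its reverse complement was in the windows of Cd53, Cd37 and 1 of the 4 start sites of Cd82, against 3.2% of the 32851 RefSeq promoters. The shorter GAGGAA, which the longer motif contains, was in 28.3% of promoters and was also in the windows of Tspan31 and Cd63. A match is not a site of binding.

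Tspan33 had the largest difference of the 10 tetraspanins from WT in both mutants on the scale of log2(RPKM + 0.5), while by ratio of mean RPKM in miR-155 KO Cd63 was level with it, both at 10.1. It had 4.99, 4.97, 4.33, 5.60 and 6.22 RPKM in the 5 PU.1 KI libraries. In the 5 miR-155 KO libraries it had 9.35, 7.86, 9.20, 9.0 and 8.45 RPKM, and in the 4 WT libraries 0.955, 0.869, 0.908 and 0.761 RPKM. The 3 groups did not overlap: every miR-155 KO library lay above every PU.1 KI library, and every PU.1 KI library above every WT library. The log2 difference, of RPKM + 0.5, was 2.05 ± 0.08 (SE) for PU.1 KI minus WT, 2.76 ± 0.08 for miR-155 KO minus WT and 0.70 ± 0.08 for miR-155 KO minus PU.1 KI. As a ratio of mean RPKM, without the added constant, Tspan33 was 5.98-fold higher in PU.1 KI and 10.1-fold higher in miR-155 KO than in WT. The values rest on 312 to 527 reads per library in PU.1 KI, 689 to 978 in miR-155 KO and 59 to 84 in WT. Tspan33 (chr6:29644222-29668559, plus strand, NCBIM37) stood above 37.3% of tested genes in PU.1 KI, above 58.2% in miR-155 KO and above 2.72% in WT. PU.1 itself, listed as Sfpi1, had 23.7 ± 2.04 RPKM in PU.1 KI (SD, n = 5), 16.7 ± 1.11 in miR-155 KO (n = 5) and 12.0 ± 1.54 in WT (n = 4), with no overlap. The order of the mutants was thus the other way round for PU.1 than for Tspan33. In bulk RNA, fewer cells with a transcript and less of it per cell cannot be told apart.

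**Figure D1:**
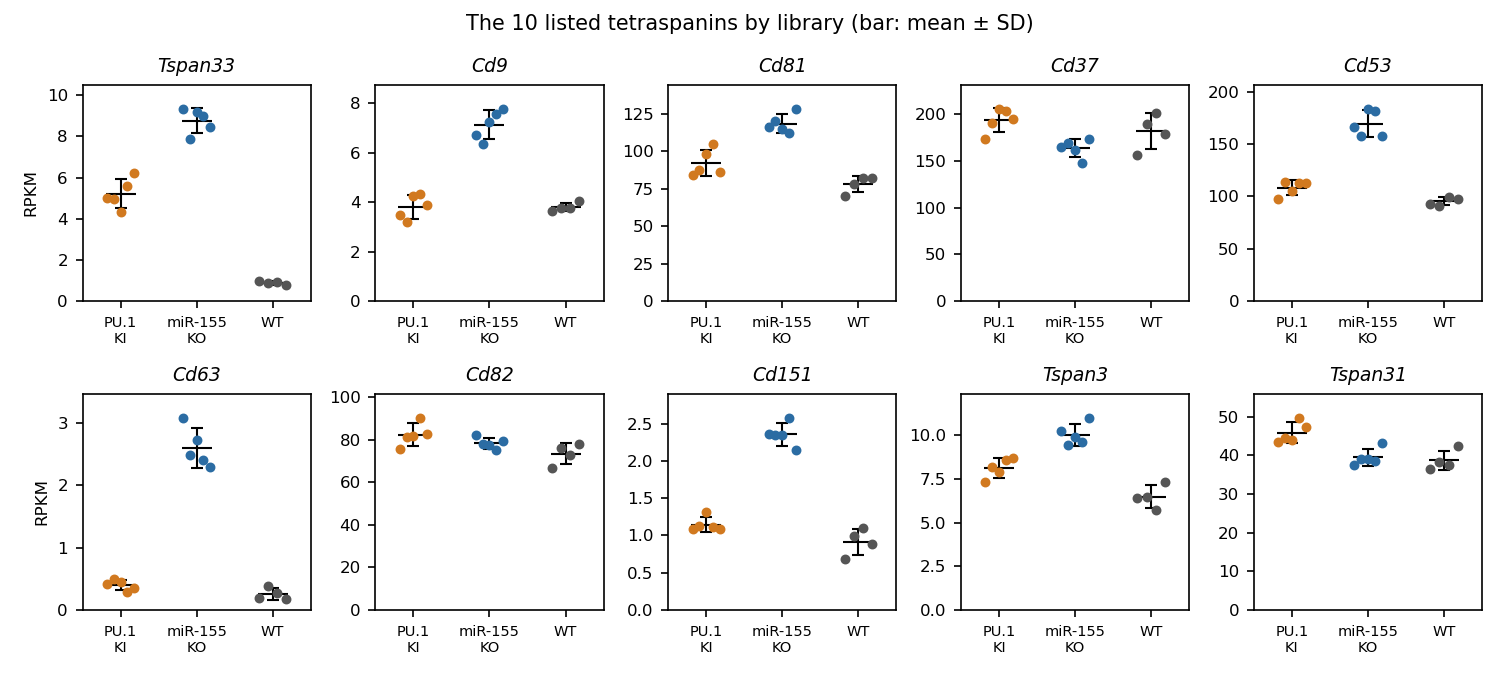
Level in RPKM of each of the 10 tetraspanins in each library (points) of PU.1 KI (n = 5), miR-155 KO (n = 5) and WT (n = 4), with the group mean and SD (bars); each panel has its own axis from 0. Tspan33 separates all 3 genotypes, while Cd9, Cd53, Cd63 and Cd151 stand apart in miR-155 KO and Cd37 and Cd82 overlap between either mutant and WT.

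Cd81, the widely expressed tetraspanin, was higher in both mutants. It had 84.0, 87.6, 97.8, 104.6 and 86.3 RPKM in PU.1 KI, and 116.0, 119.8, 114.7, 112.0 and 128.3 RPKM in miR-155 KO. WT libraries had 70.1, 78.2, 82.1 and 81.9 RPKM. No 2 groups overlapped, although the highest WT library was within a few RPKM of the lowest PU.1 KI library. The log2 difference was 0.23 ± 0.07 for PU.1 KI minus WT and 0.60 ± 0.07 for miR-155 KO minus WT. Cd9, known in mouse as a surface marker of marginal zone B cells and plasma cells, behaved differently in the mutants. It had 3.48, 3.18, 4.24, 4.31 and 3.88 RPKM in PU.1 KI, which straddled the 3.65, 3.75, 3.75 and 4.04 RPKM of WT. In miR-155 KO it had 6.71, 6.36, 7.23, 7.57 and 7.79 RPKM, above every library of the other two genotypes. The log2 difference of Cd9 was -0.00 ± 0.08 for PU.1 KI minus WT and 0.83 ± 0.08 for miR-155 KO minus WT. The mouse genome holds a processed copy of Cd9 and one of Cd63, and the sources used here do not say how the counting split reads between copies, so the levels of both genes are uncertain to that extent.

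The leukocyte tetraspanins Cd37, Cd53 and Cd82 did not move together. Cd53, which takes part in B cell receptor signalling, had 97.7, 113.9, 105.1, 112.9 and 112.4 RPKM in PU.1 KI. In miR-155 KO it had 166.6, 157.5, 184.0, 181.7 and 157.8 RPKM, and in WT 92.9, 91.2, 99.3 and 97.8 RPKM. The miR-155 KO libraries lay far above all others, whereas the lowest PU.1 KI library fell inside the WT range. The log2 difference of Cd53 was 0.18 ± 0.06 for PU.1 KI minus WT and 0.83 ± 0.06 for miR-155 KO minus WT. Cd37, which restrains interleukin 6 signalling in B cells, ranged from 173.1 to 206.0 RPKM in PU.1 KI, from 148.1 to 173.3 in miR-155 KO and from 156.5 to 201.5 in WT. Its log2 difference was 0.09 ± 0.07 for PU.1 KI minus WT, which became -0.00 and -0.01 under 2 other scalings of the libraries, median-of-ratios scaling and quantile normalization, and -0.15 ± 0.07 for miR-155 KO minus WT. Cd82 ranged from 75.4 to 90.4 RPKM in PU.1 KI, from 74.9 to 82.2 in miR-155 KO and from 66.6 to 77.8 in WT, and all 3 ranges overlapped. Its log2 difference was 0.17 ± 0.06 for PU.1 KI minus WT and 0.10 ± 0.06 for miR-155 KO minus WT. With quantile normalization the difference of Cd82 for miR-155 KO became 0.21. The difference of Cd53 for PU.1 KI became 0.09 and 0.06 under the same 2 scalings.

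Cd63, the tetraspanin of late endosomes and exosomes, was low outside miR-155 KO. It had 0.420, 0.493, 0.457, 0.288 and 0.361 RPKM in PU.1 KI and 3.09, 2.48, 2.73, 2.40 and 2.30 RPKM in miR-155 KO, against 0.198, 0.384, 0.274 and 0.175 RPKM in WT. These stand for 14 to 18 reads per library in PU.1 KI, 96 to 167 in miR-155 KO and 7 to 16 in WT. The lowest miR-155 KO library was far above the highest of the other 9, and PU.1 KI overlapped WT. The ratio of means was 1.57 for PU.1 KI over WT and 10.1 for miR-155 KO over WT. On the log2 scale with 0.5 added the difference for miR-155 KO minus WT was 2.04 ± 0.09, and with 0.1 added it was 2.95, since the constant is larger than the WT level. For PU.1 KI minus WT it was 0.26 ± 0.09 with 0.5 added, and 0.07 after quantile normalization. Cd151, which binds laminin-binding integrins such as the partner chain Itga6, had 1.09, 1.12, 1.32, 1.12 and 1.08 RPKM in PU.1 KI. It had 2.36, 2.35, 2.35, 2.58 and 2.14 RPKM in miR-155 KO and 0.688, 0.997, 1.10 and 0.883 RPKM in WT. Here too miR-155 KO stood alone, with 176 to 249 reads per library against 71 to 106 in PU.1 KI and 61 to 81 in WT. The log2 difference of Cd151, the gene with the seed match, was 0.22 ± 0.08 for PU.1 KI minus WT and 1.02 ± 0.08 for miR-155 KO minus WT. Its ratio of means was 2.57 for miR-155 KO over WT.

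Tspan3 and Tspan31 are broadly expressed tetraspanins. Tspan3 had 7.31, 8.17, 7.88, 8.58 and 8.71 RPKM in PU.1 KI and 10.2, 9.43, 9.93, 9.60 and 11.0 RPKM in miR-155 KO, against 6.44, 6.45, 5.75 and 7.33 RPKM in WT. The miR-155 KO libraries were above all others, and the lowest PU.1 KI library touched the top of the WT range. The log2 difference of Tspan3 was 0.31 ± 0.07 for PU.1 KI minus WT and 0.60 ± 0.07 for miR-155 KO minus WT. Tspan31 went the other way between the mutants: it had 43.4 to 49.7 RPKM in PU.1 KI, above the 36.5 to 42.3 RPKM of WT, while the 37.6 to 43.1 RPKM of miR-155 KO overlapped WT. Its log2 difference was 0.24 ± 0.06 for PU.1 KI minus WT and 0.03 ± 0.06 for miR-155 KO minus WT. The first became 0.15 with median-of-ratios scaling, and the second became 0.16 with quantile normalization. The span of Tspan31 overlaps that of Cdk4 on the opposite strand by 604 bases in the deposited table. Cdk4 had mean levels of 46.4 RPKM in PU.1 KI, 37.9 in miR-155 KO and 51.7 in WT. The sources used here do not say whether the counting used strand, so reads from the shared stretch cannot be assigned to one gene.

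**Figure D2:**
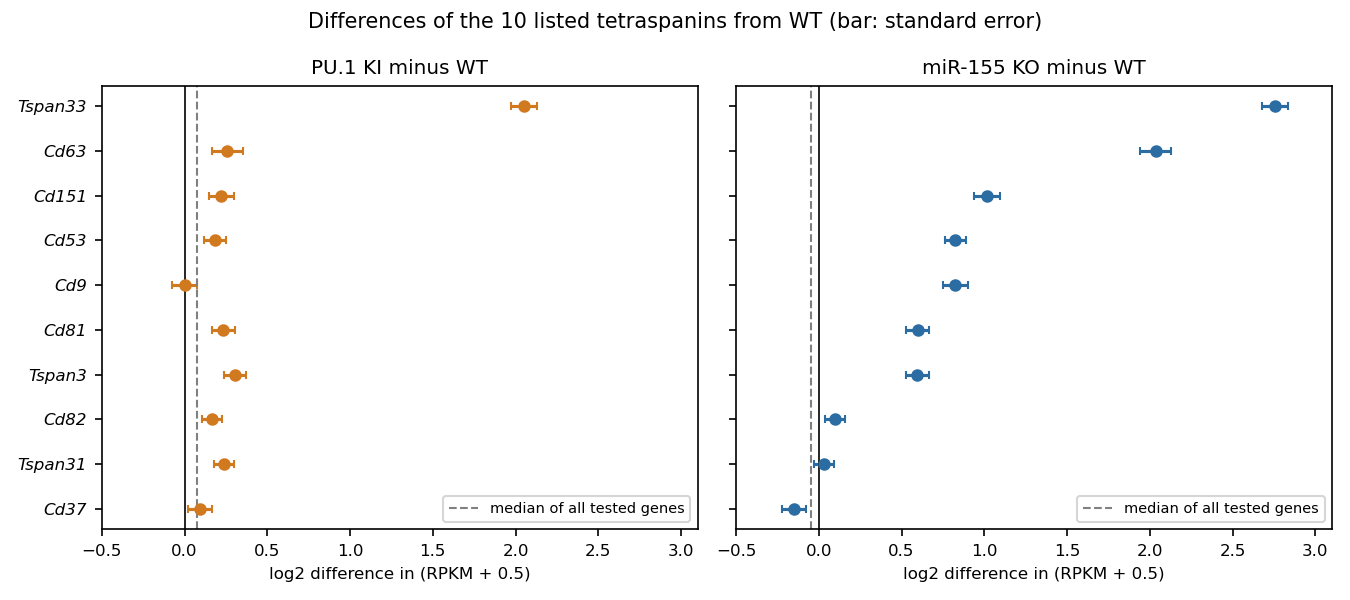
Log2 difference in RPKM + 0.5 of each tetraspanin (points, bars are SE) for PU.1 KI minus WT (left) and miR-155 KO minus WT (right), with the median of all tested genes dashed. Tspan33 is alone at 2.05 on the left, with the other 9 between -0.00 and 0.31, while on the right Tspan33 at 2.76, Cd63 at 2.04 and Cd151 at 1.02 are followed by a graded series down to Cd37 at -0.15.

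Genes were tested across the whole table where they reached 1 RPKM in at least 4 libraries, and were called at a Benjamini-Hochberg adjusted p under 0.05 in limma. All 10 tetraspanins passed this filter, Tspan33 only through libraries of the mutants, Cd63 only through miR-155 KO and Cd151 largely through the mutants. For PU.1 KI against WT, 8 of the 10 were called higher and 0 lower, where 23.7% of all tested genes were called higher and 4.03% lower. The 8 included Cd63, which was under 1 RPKM in every library of both groups. The ranges were apart with PU.1 KI higher for 3 (Tspan33, Cd81 and Tspan31), where 18.4% of all tested genes were apart and higher and 3.76% apart and lower. For miR-155 KO against WT, 7 were called higher and 0 lower, beside 27.2% and 35.3% of all tested genes. The same 7 (Tspan33, Cd9, Cd81, Cd53, Cd63, Cd151 and Tspan3) had ranges apart and higher, beside 23.5% of tested genes apart and higher and 24.9% apart and lower. These counts used the contrasts that chose the list, and nothing is read from them.

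The count of 8 for PU.1 KI depended on scaling and on single libraries. It was 4 with median-of-ratios scaling, 4 with quantile normalization and 4 with no filter on low values. Without WT 1 or without PU.1 KI 3 it was 3, without PU.1 KI 2 it was 4, and without PU.1 KI 4 or PU.1 KI 5 it was 5. Over all genes, PU.1 KI against WT gave 2279 higher and 388 lower as deposited, 1677 and 1518 after median-of-ratios scaling, and 1520 and 1549 after quantile normalization. Tspan33 kept a log2 difference for PU.1 KI minus WT of 1.99 to 2.11 whichever library was left out, and of 1.89 after quantile normalization. The count of 7 higher for miR-155 KO against WT was 8 with median-of-ratios scaling and 9 with quantile normalization. Over all genes these scalings gave 3278 higher and 3274 lower, and 3002 higher and 3553 lower. Without WT 1, or with the replicate number as a block, 1 of the 10 was called lower.

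Between the mutants, with miR-155 KO set against PU.1 KI, the median log2 difference of all tested genes was -0.13 as deposited and -0.00 after median-of-ratios scaling. Cd63 at 1.78 ± 0.09, Cd9 at 0.83 ± 0.07, Cd151 at 0.80 ± 0.07, Tspan33 at 0.70 ± 0.08 and Cd53 at 0.64 ± 0.06 were higher in miR-155 KO. Cd81 at 0.36 ± 0.07 and Tspan3 at 0.29 ± 0.06 were higher by less. Cd37 at -0.24 ± 0.07 and Tspan31 at -0.21 ± 0.06 were lower, and became -0.11 and -0.07 after median-of-ratios scaling, which brings the median of all genes close to 0. Cd82 was at -0.07 ± 0.06 as deposited and turned to 0.07 and 0.13 with the scalings named above. In this comparison 7 were called higher and 2 lower, beside 17.9% and 46.4% of all tested genes, and 7 had ranges apart and higher and 1 apart and lower, beside 13.4% and 29.7%. Over all genes the calls were 1725 higher and 4467 lower as deposited, 3033 and 3013 after median-of-ratios scaling, and 2831 and 3216 after quantile normalization. With both scalings the 2 lower calls were lost, leaving 0.

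The order of levels within a genotype, on the per-length scale, differed between genotypes at the top and the low end. In WT the order was Cd37, Cd53, Cd81, Cd82, Tspan31, Tspan3, Cd9, Cd151, Tspan33 and Cd63. The ranges of Cd81 and Cd82 overlapped, as did those of Cd151 and Tspan33, and all other neighbours were apart. In PU.1 KI Tspan33 stood above Cd9 and Cd151, and Cd53, Cd81 and Cd82 overlapped in turn. In miR-155 KO Cd53 at 169.5 ± 12.7 RPKM and Cd37 at 163.4 ± 9.61 RPKM (SD, n = 5 each) overlapped at the top, and Cd63 and Cd151 overlapped at the bottom. Cd37 held 35.8% of the summed level of the 10 genes in PU.1 KI, 27.2% in miR-155 KO and 37.9% in WT. The sum was 540.9 ± 32.8 RPKM in PU.1 KI, 599.7 ± 11.2 in miR-155 KO and 479.4 ± 30.9 in WT (SD).

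Of 22 other tetraspanin genes listed, 21 were in the table and 7 passed the filter. This list and the gene lists below were chosen with earlier results of these data known. Their counts and adjusted p are therefore not tests independent of that choice. In PU.1 KI against WT 3 of the 7 rose and 0 fell in limma, beside 23.7% and 4.03% of all tested genes, and 1 (Tspan4) was lower at an unadjusted p under 0.05. The median log2 difference of the 7 was 0.05, against 0.08 over all tested genes. Tspan5, a TspanC8 member like Tspan33, had 5.06 ± 0.414 RPKM in PU.1 KI and 4.03 ± 0.462 in WT (log2 difference 0.30 ± 0.07, adjusted p = 0.00485). Rom1, known from photoreceptor discs, had 4.05 ± 0.518 and 2.98 ± 0.695 RPKM in PU.1 KI and WT (0.40 ± 0.11, adjusted p = 0.00839). Tspan13 had 25.9 ± 0.99 RPKM in PU.1 KI and 21.5 ± 1.41 in WT (0.26 ± 0.09, adjusted p = 0.0278). The call of Tspan13 was lost with no filter (0.0645), with median-of-ratios scaling (0.176) or quantile normalization (0.208), and without WT 1 (0.0852), WT 2 (0.0533), WT 3 (0.0635), PU.1 KI 3 (0.0553) or PU.1 KI 4 (0.0606), each as an adjusted p. Under the scalings Tspan2 (adjusted p = 0.0377 and 0.0342) and Tspan4 (0.0203 and 0.0241) were called lower instead.

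In miR-155 KO against WT 3 of the 7 other tetraspanins rose and 2 fell, beside 27.2% and 35.3% of all tested genes, with a median log2 difference of 0.05 against -0.05 over all tested genes. Tspan14, another TspanC8 member, had 10.8, 11.4, 11.4, 11.3 and 11.8 RPKM in miR-155 KO and 6.81, 7.46, 7.29 and 6.77 RPKM in WT. Its groups were far apart (log2 difference 0.64 ± 0.05, adjusted p = 3.81e-09), while PU.1 KI at 7.36 ± 0.364 RPKM lay 0.05 ± 0.05 from WT (adjusted p = 0.50). Tspan32, a leukocyte tetraspanin, had 14.6 ± 0.529 RPKM in miR-155 KO and 11.7 ± 0.380 in WT (0.30 ± 0.06, adjusted p = 0.000145). Tspan5 had 4.87 ± 0.367 RPKM in miR-155 KO (0.25 ± 0.07 from WT, adjusted p = 0.00620). Tspan2 had 3.07 ± 0.370 RPKM in miR-155 KO and 4.64 ± 0.228 in WT (-0.53 ± 0.07, adjusted p = 3.37e-06). Rom1 had 1.97 ± 0.122 RPKM in miR-155 KO (-0.47 ± 0.11 from WT, adjusted p = 0.000789), so that it was lower than WT in this mutant and higher in PU.1 KI. Tspan4 had 1.51 ± 0.152, 1.56 ± 0.289 and 1.81 ± 0.156 RPKM in PU.1 KI, miR-155 KO and WT, with no call as deposited. In miR-155 KO it was called lower without the library miR-155 KO 5 (adjusted p = 0.0205) or after quantile normalization (0.0103), and without that same library Tspan13 was called higher (0.0410).

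Between the mutants 2 of the 7 were higher and 3 lower in miR-155 KO, beside 17.9% and 46.4% of all tested genes. Tspan14 (0.59 ± 0.05, adjusted p = 6.79e-09) and Tspan32 (0.25 ± 0.05, adjusted p = 0.000502) were the higher ones. Tspan2 (-0.41 ± 0.07, adjusted p = 4.11e-05), Rom1 (-0.88 ± 0.10, adjusted p = 5.10e-07) and Tspan13 (-0.21 ± 0.08, adjusted p = 0.0271) were the lower ones. The call of Tspan13 was lost with no filter (adjusted p = 0.0579), with both scalings (0.473 and 0.778) and without PU.1 KI 3 (0.0502), PU.1 KI 4 (0.0588) or miR-155 KO 5 (0.0657). Of the TspanC8 genes past the filter, Tspan33 was higher than WT in both mutants, but it was chosen on such a difference. Tspan5 was called higher than WT in both mutants, with ranges that overlapped WT in each. Tspan14 was higher in miR-155 KO than in PU.1 KI or WT.

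**Figure D3:**
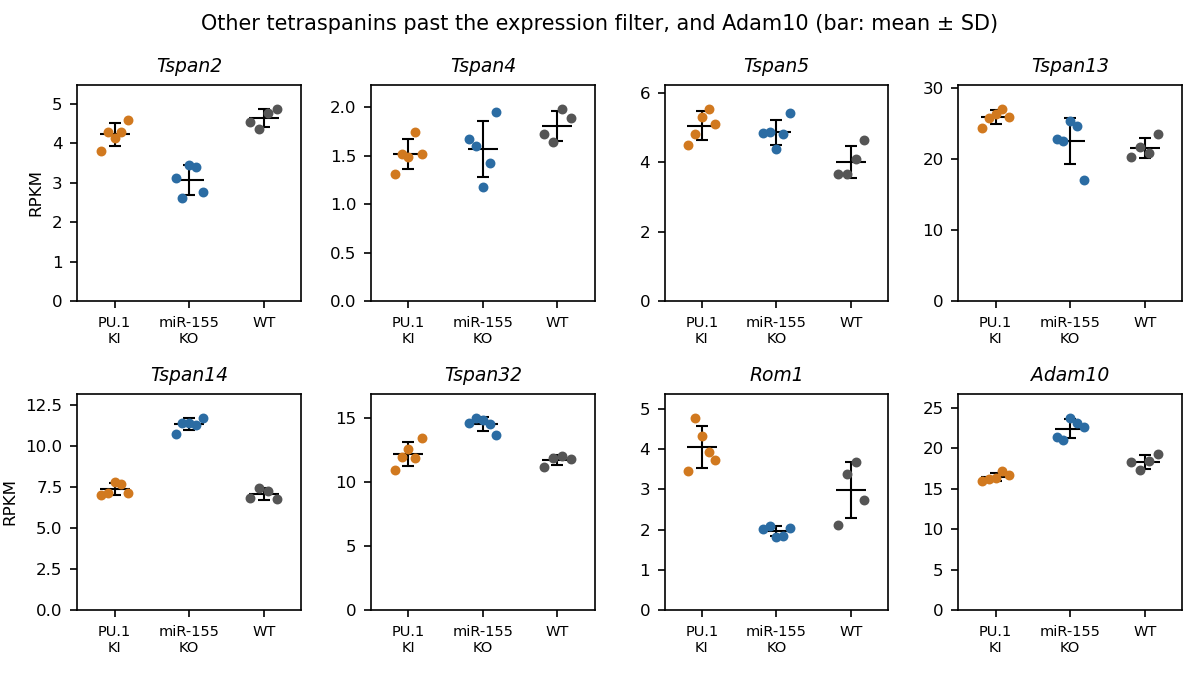
Level in RPKM of the 7 other tetraspanins that passed the filter, and of Adam10, in each library (points) of PU.1 KI (n = 5), miR-155 KO (n = 5) and WT (n = 4), with group mean and SD (bars) on axes from 0. Tspan14 is apart from both other groups in miR-155 KO at 11.3 ± 0.368 RPKM, and Adam10 is apart in all 3 groups, averaging 16.5 RPKM in PU.1 KI, 22.4 in miR-155 KO and 18.3 in WT.

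Adam10, the protease that TspanC8 proteins escort, differed in opposite directions in the 2 mutants. It had 15.9, 16.2, 16.3, 17.2 and 16.7 RPKM in PU.1 KI and 21.4, 21.0, 23.8, 23.1 and 22.7 RPKM in miR-155 KO, against 18.3, 17.2, 18.4 and 19.3 RPKM in WT. The ranges did not overlap, but the gap between PU.1 KI and WT was narrow. In miR-155 KO Adam10 rose by 0.28 ± 0.05 on the log2 scale over WT (adjusted p = 0.000151) and was 0.43 ± 0.05 above PU.1 KI (adjusted p = 5.89e-07). In PU.1 KI it fell by 0.15 ± 0.05 (adjusted p = 0.0408). That call was lost without any one of 8 libraries, with an adjusted p of 0.0835, 0.0846 and 0.110 without WT 1, WT 3 and WT 4. It was 0.0584, 0.0796, 0.0838 and 0.0631 without PU.1 KI 1, 2, 3 and 5, and 0.0501 without miR-155 KO 4. Of 15 genes for ADAM10 and proteins it is known to cut, 9 passed the filter. In PU.1 KI against WT 4 rose and 1 fell (median log2 difference 0.16), in miR-155 KO against WT 6 rose and 1 fell (median 0.38), and in miR-155 KO against PU.1 KI 5 were higher and 2 lower (median 0.31). Over all tested genes these medians were 0.08, -0.05 and -0.13. The shares of all tested genes called higher and lower were 23.7% and 4.03%, 27.2% and 35.3%, and 17.9% and 46.4%. Icosl met the filter through miR-155 KO alone, and without it the counts were 4 and 1, 5 and 1, and 4 and 2. With either other scaling the counts over all 9 were 4 and 1, 7 and 1, and 7 and 2. Over all tested genes median-of-ratios scaling gave 1677 and 1518, 3278 and 3274, and 3033 and 3013. Quantile normalization gave 1520 and 1549, 3002 and 3553, and 2831 and 3216.

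Among the substrates Fcer2a, the low-affinity IgE receptor CD23, was the most abundant, with 374.9 ± 43.2 RPKM in PU.1 KI, 390.9 ± 40.5 in miR-155 KO and 299.0 ± 16.8 in WT. It rose in PU.1 KI (log2 difference 0.32 ± 0.09, adjusted p = 0.00921) and in miR-155 KO (0.38 ± 0.09, adjusted p = 0.000809). Lag3, an inhibitory receptor, had 8.86 ± 1.32, 14.5 ± 1.47 and 4.61 ± 1.12 RPKM in PU.1 KI, miR-155 KO and WT and rose in both (0.89 ± 0.12, adjusted p = 2.01e-05, and 1.58 ± 0.12, adjusted p = 1.86e-09). Il6ra, the interleukin 6 receptor chain, also rose in both (0.40 ± 0.06, adjusted p = 6.98e-05, and 0.71 ± 0.06, adjusted p = 9.77e-09). These receptors were higher than WT in both mutants, as was Tspan33, which was chosen on such a difference. Icosl, the ligand of the T cell costimulator ICOS, had 0.318 ± 0.0602 RPKM in PU.1 KI, 1.39 ± 0.153 in miR-155 KO and 0.232 ± 0.0871 in WT. Every miR-155 KO library was above all others, with a log2 difference from WT of 1.37 ± 0.09, and no p is given because a gene that met the filter through its high group had to differ. App, the amyloid precursor, rose in miR-155 KO (0.65 ± 0.08, adjusted p = 9.35e-07) and lay 0.04 ± 0.08 from WT in PU.1 KI (adjusted p = 0.781). Each of the Notch receptors passed against WT in 1 mutant. Notch2, which marginal zone B cells need, had 12.4 ± 0.886 RPKM in PU.1 KI, 9.21 ± 0.365 in miR-155 KO and 9.87 ± 0.593 in WT, and rose in PU.1 KI (0.31 ± 0.06, adjusted p = 0.000676). Notch1 fell in miR-155 KO (-0.18 ± 0.07, adjusted p = 0.0234), a call lost without WT 2 (0.0721), WT 3 (0.0998), miR-155 KO 3 (0.0506) or miR-155 KO 4 (0.0602).

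Of 23 genes for proteins known to associate with tetraspanins, 14 passed the filter. In PU.1 KI against WT 4 rose and 1 fell (median log2 difference 0.11), against 4 and 2 with median-of-ratios scaling and 4 and 3 with quantile normalization. Over all tested genes those scalings gave 1677 and 1518, and 1520 and 1549. In miR-155 KO against WT 6 rose and 7 fell (median -0.16). Between the mutants 4 were higher and 7 lower in miR-155 KO (median -0.20). Of all tested genes 23.7% were called higher and 4.03% lower in PU.1 KI against WT, 27.2% and 35.3% in miR-155 KO against WT, and 17.9% and 46.4% between the mutants, with medians of 0.08, -0.05 and -0.13. Itga6 met the filter through miR-155 KO alone, and without it the counts were 4 and 1, 5 and 7, and 3 and 7. Ifitm2 and Ifitm3, interferon-induced membrane proteins of a family found with CD81 on B cells, moved apart in miR-155 KO. Ifitm2 had 15.7 ± 1.27 RPKM in PU.1 KI, 56.1 ± 5.90 in miR-155 KO and 11.0 ± 1.63 in WT, and rose in PU.1 KI (0.51 ± 0.09, adjusted p = 0.000295) and miR-155 KO (2.31 ± 0.09, adjusted p = 8.59e-14). Ifitm3 had 28.4 ± 1.99, 7.39 ± 0.858 and 15.8 ± 1.61 RPKM in PU.1 KI, miR-155 KO and WT. It rose in PU.1 KI (0.83 ± 0.08, adjusted p = 2.85e-07) and fell in miR-155 KO (-1.05 ± 0.08, adjusted p = 1.52e-09). The 2 genes are similar in sequence, and how their shared reads were counted is not stated.

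Itga6, a laminin-binding integrin chain and partner of CD151, had 0.638 ± 0.0396 RPKM in PU.1 KI, 2.09 ± 0.0942 in miR-155 KO and 0.684 ± 0.0967 in WT. Every miR-155 KO library was above all others. The log2 difference of Itga6 was 1.13 ± 0.07 for miR-155 KO minus WT and -0.05 ± 0.07 for PU.1 KI minus WT, without a p as for Icosl. Itgb7, an integrin chain that pairs with Itga4, rose in miR-155 KO (0.44 ± 0.07, adjusted p = 3.37e-05). In PU.1 KI Itgb7 lay -0.17 ± 0.07 from WT (adjusted p = 0.0914) and was called lower with median-of-ratios scaling (0.0110), quantile normalization (0.00686) or without PU.1 KI 3 (0.0418). Itga4, named after its values were seen, had 4.92 ± 0.373 RPKM in PU.1 KI, 5.72 ± 0.575 in miR-155 KO and 6.70 ± 0.248 in WT. It fell in PU.1 KI (-0.41 ± 0.07, adjusted p = 0.000195) and in miR-155 KO (-0.22 ± 0.07, adjusted p = 0.0111), where Itgb7 rose. Socs3, the feedback inhibitor that CD37 is known to engage in B cells, rose in both mutants (1.13 ± 0.10, adjusted p = 8.82e-08, in PU.1 KI and 1.08 ± 0.10, adjusted p = 1.81e-08, in miR-155 KO). Cd36, a scavenger receptor found with CD9 on macrophages, rose in PU.1 KI (0.82 ± 0.07, adjusted p = 1.30e-07). In miR-155 KO its difference was 0.18 ± 0.07 (adjusted p = 0.0428), which ended without WT 1 (0.0918), WT 2 (0.166), PU.1 KI 2 (0.050), PU.1 KI 3 (0.0507), miR-155 KO 3 (0.0574) or miR-155 KO 5 (0.119) and with no filter (0.0734) or with the replicate number as a block (0.0754). The peptide loaders of class II, which tetraspanin microdomains hold, fell in miR-155 KO: H2-DMb2 differed from WT by -0.45 ± 0.06 (adjusted p = 1.32e-06) and H2-DMa by -0.27 ± 0.06 (adjusted p = 0.000705). In PU.1 KI they lay 0.12 ± 0.06 (adjusted p = 0.118) and 0.09 ± 0.06 (adjusted p = 0.291) from WT, and H2-DMb2 was called higher without PU.1 KI 1 (0.0233). The class II genes H2-Aa (-0.26 ± 0.06), H2-Ab1 (-0.28 ± 0.07) and H2-DMb1 (-0.20 ± 0.06) also fell in miR-155 KO. The call of H2-DMb1 was lost with quantile normalization (0.177). The 7 partner genes that fell there were thus the class II genes, all on chromosome 17, with Ifitm3 and Itga4.

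**Figure D4:**
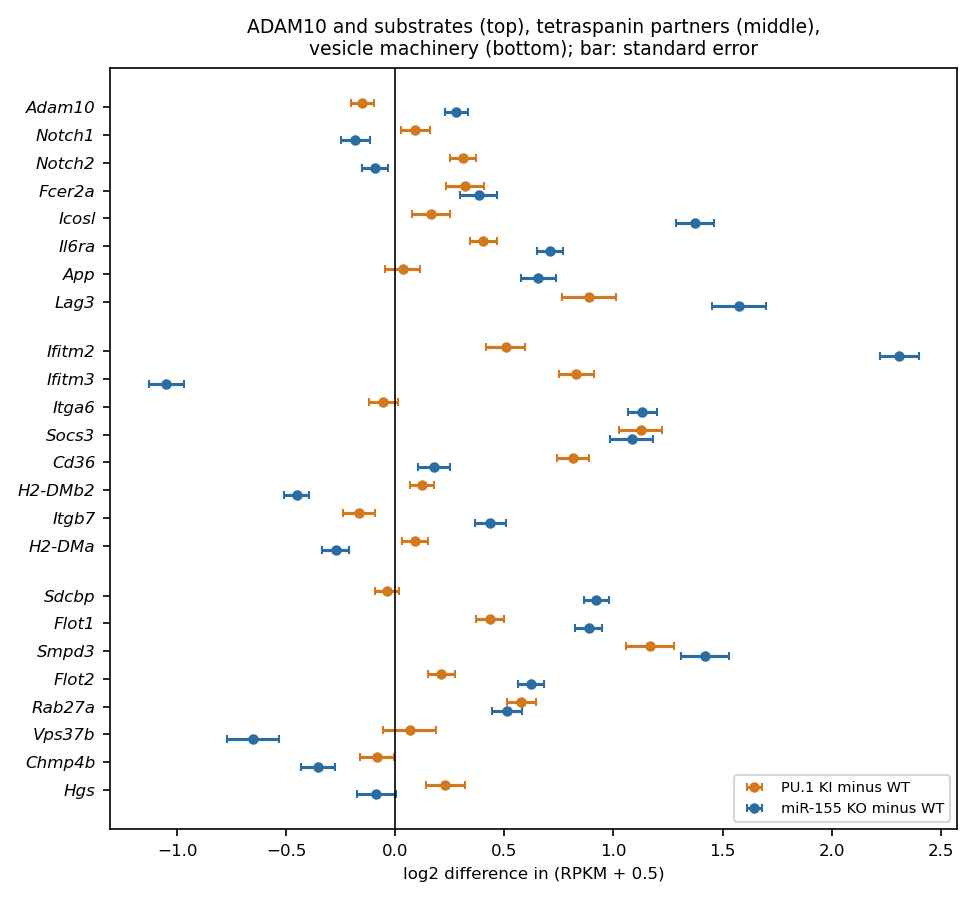
Log2 difference in RPKM + 0.5 (points, bars are SE) for PU.1 KI minus WT and miR-155 KO minus WT of ADAM10 and its substrates (top 8), tetraspanin partners (middle 8) and vesicle machinery (bottom 8). Ifitm3 and Cd36 lie further right in PU.1 KI than in miR-155 KO, whereas Ifitm2, Icosl, Itga6 and Sdcbp lie between -0.05 and 0.51 in PU.1 KI and between 0.92 and 2.31 in miR-155 KO.

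Of 20 genes for exosome and multivesicular body machinery, in which CD63 travels, 19 passed the filter. In PU.1 KI against WT 5 rose and 0 fell (median log2 difference 0.10), in miR-155 KO against WT 5 rose and 3 fell (median 0.04), and between the mutants 4 were higher and 8 lower in miR-155 KO (median -0.09). At an unadjusted p under 0.05 limma also found 0 lower in PU.1 KI against WT. Of all tested genes, 23.7% and 4.03%, 27.2% and 35.3%, and 17.9% and 46.4% were called higher and lower in these comparisons, with medians of 0.08, -0.05 and -0.13. As deposited, the share of the list that rose in either mutant was thus close to that of all tested genes. Smpd3 met the filter through the mutants alone, and without it the counts against WT were 4 and 0 in PU.1 KI and 4 and 3 in miR-155 KO. With median-of-ratios scaling the counts over all 19 were 4 and 1, 8 and 3, and 6 and 4. Of the 9627 tested genes that scaling called 1677 and 1518, 3278 and 3274, and 3033 and 3013 higher and lower. Quantile normalization gave 4 and 1, 9 and 3, and 5 and 2 in the list. Over all tested genes it gave 1520 and 1549, 3002 and 3553, and 2831 and 3216. Sdcbp, the adaptor syntenin that links CD63 to vesicle formation, had 9.25 ± 0.510 RPKM in PU.1 KI, 18.5 ± 1.09 in miR-155 KO and 9.51 ± 0.410 in WT. It rose in miR-155 KO (0.92 ± 0.06, adjusted p = 6.93e-11) and lay -0.04 ± 0.06 from WT in PU.1 KI (adjusted p = 0.660). Smpd3, the neutral sphingomyelinase that drives vesicle budding, had 1.28 ± 0.278 RPKM in PU.1 KI, 1.61 ± 0.186 in miR-155 KO and 0.291 ± 0.102 in WT. Every library of either mutant was above all WT libraries, with log2 differences from WT of 1.17 ± 0.11 in PU.1 KI and 1.42 ± 0.11 in miR-155 KO, and no p is given for the reason stated for Icosl. Flot1 rose in PU.1 KI (0.43 ± 0.06, adjusted p = 4.26e-05) and in miR-155 KO (0.89 ± 0.06, adjusted p = 6.50e-10). Its membrane scaffold partner Flot2 rose in PU.1 KI (0.21 ± 0.06, adjusted p = 0.0134, and 0.0641 without WT 1) and in miR-155 KO (0.62 ± 0.06, adjusted p = 4.46e-08). Rab27a, the GTPase that docks multivesicular bodies at the membrane, rose in PU.1 KI (0.58 ± 0.07, adjusted p = 3.28e-06) and miR-155 KO (0.51 ± 0.07, adjusted p = 2.55e-06), and the mutants differed by -0.06 ± 0.06 (adjusted p = 0.385). Rab11a was called higher in PU.1 KI (0.18 ± 0.06, adjusted p = 0.0311). That call was lost without any one of 5 libraries, WT 1 among them (0.0913), and with both scalings (0.140 and 0.210).

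Of the genes for the sorting complexes that form multivesicular bodies, Vps37b fell in miR-155 KO (-0.65 ± 0.12, adjusted p = 0.000123), as did Chmp4b (-0.35 ± 0.08, adjusted p = 0.000611). In PU.1 KI Chmp4b lay -0.08 ± 0.08 from WT (adjusted p = 0.457) and was called lower with both scalings (0.0125 and 0.0162). Hgs lay 0.23 ± 0.09 from WT in PU.1 KI (adjusted p = 0.0610) and passed without WT 3 (0.0196), PU.1 KI 1 (0.0216), miR-155 KO 4 (0.0459) or miR-155 KO 5 (0.0423). Between the mutants the lower calls of Rab35, Tsg101, Vps4a and Rab7 were lost without any one of 10, 7, 7 and 5 libraries. They were also lost with both scalings. Vps4b fell in miR-155 KO against WT (-0.13 ± 0.06, adjusted p = 0.0428), a call lost without any one of 7 libraries.

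The genes whose pattern over the 14 libraries was most like that of Tspan33, by Pearson correlation of log2 levels, were Kctd14 (0.991), Mthfs (0.99), Bcl2a1b (0.988), Rassf4 (0.987) and Ptger4 (0.985). All 5 were in the order miR-155 KO, PU.1 KI and WT from high to low, as Kctd14 with 5.78 ± 0.497 RPKM in PU.1 KI, 7.40 ± 0.132 in miR-155 KO and 2.87 ± 0.147 in WT. For Cd63, whose genotype means had the widest span after Tspan33 in log2(RPKM + 0.5), they were Anpep (0.992), Ugt1a10 (0.99), Ugt1a8 (0.99), Ugt1a9 (0.99) and Ugt1a2 (0.99). Anpep had 0.238 ± 0.0426 RPKM in PU.1 KI, 2.95 ± 0.272 in miR-155 KO and 0.0792 ± 0.0245 in WT. Anpep and these Ugt1a genes, like Cd63, met the filter through miR-155 KO alone. They had to be high in that genotype, so nothing is read from their likeness to Cd63. The Ugt1a genes share exons at 1 locus and Bcl2a1b has near-identical copies, so these entries are not separate measurements. The points share their libraries and genotype groups, and the values describe these 14 libraries.

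The B cell identity of the libraries was checked with fixed marker lists. The 5 B cell markers summed to between 1180 and 1351 RPKM in PU.1 KI, 988.5 and 1080 in miR-155 KO and 1170 and 1357 in WT. Of them Cd79a (-0.50 ± 0.06, adjusted p = 2.10e-06), Ms4a1 (-0.76 ± 0.06, adjusted p = 4.15e-09) and Cd22 (-0.37 ± 0.06, adjusted p = 4.21e-05) fell in miR-155 KO against WT, whereas in PU.1 KI Ms4a1 fell (-0.28 ± 0.06, adjusted p = 0.00234) and Pax5 rose (0.28 ± 0.06, adjusted p = 0.00221). None of the markers of T cells, macrophages, NK cells, neutrophils, mast cells, megakaryocytes or erythroid cells passed the filter, and of the dendritic and stromal lists only Flt3 and Pecam1 did. Flt3 rose in PU.1 KI (0.70 ± 0.08, adjusted p = 3.89e-06) and miR-155 KO (0.52 ± 0.08, adjusted p = 2.50e-05), and Pecam1 fell in miR-155 KO (-0.93 ± 0.06, adjusted p = 1.42e-10). The 6 macrophage markers, of cells that also carry Cd63 and Cd9, summed to 0.385 to 0.660 RPKM in PU.1 KI, 1.09 to 1.39 in miR-155 KO and 0.417 to 0.633 in WT, with none at 0 in all libraries. Emr1, at 0.253, 0.738 and 0.20 RPKM, and Itgam, at 0.126, 0.331 and 0.0498 RPKM on average in PU.1 KI, miR-155 KO and WT, carried the higher sum. The 6 T cell markers summed to 0.0292 to 0.208, 0.676 to 0.945 and 0.217 to 0.330 RPKM in PU.1 KI, miR-155 KO and WT. Cd8a alone, at 0.0636, 0.645 and 0.0307 RPKM on average, carried the higher sum in miR-155 KO, while Cd28 was lower there, at 0.0611 RPKM against 0.162 in WT. The part of either in the higher Cd63 of miR-155 KO was not tested. The plasma cell markers summed to 224.2 to 344.3 RPKM in PU.1 KI, 267.1 to 405.9 in miR-155 KO and 417.4 to 500.9 in WT, so both mutants lay below WT. Igj and Xbp1 made up most of that sum and fell in both mutants (Igj by 1.12 and 0.91 on the log2 scale, adjusted p = 0.000124 and 0.000232, and Xbp1 by 0.35 and 0.32, adjusted p = 0.00196 and 0.00114, in PU.1 KI and miR-155 KO). Irf4 of the same list rose in PU.1 KI (0.38 ± 0.07, adjusted p = 0.000660) and miR-155 KO (0.66 ± 0.07, adjusted p = 2.35e-07), and Sdc1 lay 0.17 ± 0.12 from WT in miR-155 KO (adjusted p = 0.228). Prdm1 had 3.379 to 5.565 RPKM in PU.1 KI, 3.322 to 5.893 in miR-155 KO and 5.587 to 6.25 in WT. At an unadjusted p under 0.05 in limma Prdm1 was lower in both mutants and Sdc1 was lower in PU.1 KI. The part of plasma cells in the levels of Cd9 and Tspan33 was not tested.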

How the data were processed

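Polyadenylated RNA of cultured B cells was measured in 14 libraries. The authors deposited 1 table of RPKM values, with a column for each library, and each column name matched 1 library. Trim Galore, TopHat and the mouse build NCBIM37 are named in the submitters' processing notes without versions, and the sources used here give no read counter, annotation or strand setting. Coordinates of genes are those of the table (NCBIM37), and coordinates of sequences are GRCm38.

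RPKM are not counts, so limma 3.58.1 (R 4.3.3) was run on log2(RPKM + 0.5) over all 14 libraries, with 1 mean per genotype, empirical Bayes with an intensity trend, two-sided, adjusted by Benjamini-Hochberg over the 9627 genes with at least 1 RPKM in at least 4 libraries. A log2 difference on this scale understates the change of low genes. Every adjusted p is from this test. The members and gene lists were chosen with earlier results of these data known, and 1 gene was left out of them and is not reported here. Of each list, every tested gene was named where at most 8 were tested, and otherwise the 8 with the smallest adjusted p. Itga4 and some other list genes were named besides, after their values were seen. The 5 genes most correlated with Tspan33 and with Cd63 were also named. The scripts were tested on simulated data.

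Depth, here the library size behind the RPKM values, was recovered for each library. It was the smallest number of reads that turned RPKM into whole reads for the 250 lowest values among genes spanning under 2500 bp. Between 66.8% and 72.8% of these were whole to within 0.01 reads. Reads are given for 6 members whose values were whole within 0.05 reads in every library. Alternatives were 0.1 and 1 as the constant, no filter, a filter of 5 RPKM, median-of-ratios scaling, quantile normalization, a replicate block and each library left out. List counts without genes that had no library at 1 RPKM in a genotype compared were added after seeing the data. Tables and figures were made in Python 3.11.15 with pandas 2.3.3, numpy 2.4.6 and matplotlib 3.10.9.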

Additional observations from a re-analysis of the deposited data

Results flagged for a closer look

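The levels of the 10 tetraspanins were screened in each genotype for a library far from the others, 30 sets in all, and 2 stood out, where chance flags about 1 in 20. Cd151 had 1.32 RPKM in the library PU.1 KI 3, with the other 4 PU.1 KI libraries between 1.08 and 1.12 RPKM. Tspan31 had 43.1 RPKM in miR-155 KO 5, with the other 4 miR-155 KO libraries between 37.6 and 39.2 RPKM. The library miR-155 KO 5 also lay apart from its group on the first principal component, at 19.9 against 24.2 to 27.7.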

How the results depend on the processing

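The members were selected with these results in view, WT has 4 libraries, and depth limits Cd63, which rests on 7 to 18 reads per library in PU.1 KI and WT. The count of other tetraspanins called in miR-155 KO against WT was 5 of 7 tested, beside 6017 of 9627 genes. With no filter on low values it was 8 of 20, beside 7546 of 16526. With a filter of 5 RPKM it was 3 of 4, beside 4057 of 6396. In miR-155 KO against PU.1 KI it was 5 of 7, beside 6192 of 9627. With the filter of 5 RPKM it was 3 of 4 there, beside 4340 of 6396. With 1 library left out, the genes called numbered 1966 to 3128 for PU.1 KI against WT, 5553 to 6205 for miR-155 KO against WT and 5755 to 6471 for miR-155 KO against PU.1 KI. The other tetraspanins called then numbered 2 to 3, 5 to 7 and 4 to 5 in these comparisons. Directions turned for 4 list genes that were called under either setting. Of list genes called under neither, 12 turned with 1 or both other scalings in PU.1 KI against WT, 2 in miR-155 KO against WT and 9 between the mutants. After quantile normalization Rab7 became 0.084 in miR-155 KO minus WT, and in miR-155 KO minus PU.1 KI Rab7 became 0.026 and Rab35 0.053. Pdcd6ip became 0.078 and 0.13 and Vps28 0.12 and 0.18 after median-of-ratios scaling and quantile normalization. The cause was not tested. In miR-155 KO against PU.1 KI the call of Smpd3 (0.25) was lost with 0.1 as the constant, with no filter, with quantile normalization and without any one of 7 libraries, at an adjusted p of 0.0521 to 0.131. The labels do not say whether the replicate numbers pair the libraries. Correlations of the deviations ran from -0.387 to 0.466 for same-numbered libraries and from -0.558 to 0.568 for other pairs of different genotypes. Pairing cannot be told from these values. With a replicate block 2908, 6326 and 6461 genes were called in the 3 comparisons, against 2667, 6017 and 6192, and of the calls of list genes 4 were gained and 1, Cd36 in miR-155 KO against WT, was lost.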
